A study of Arabidopsis thaliana with 18 samples.

Results

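The cytosolic ribosome is built from a small 40S and a large 60S subunit, and this account concerns 60 Arabidopsis thaliana genes that encode its proteins. The genes were taken from a fixed list of identifiers of 27 protein families, 38 genes for 60S and 22 for 40S proteins, named by the protein they encode. All 60 were among the 18010 nuclear genes listed in the Ser2P pNET-seq table of Col-0 and among the 19251 listed for xrn3, 56 were among the 14999 genes listed for DMSO, and 55 among the 12663 listed for GEX1A, with 54 present in every table. A gene enters these tables only if its read density at the 3' end was higher than in its gene body by the study's own test, so that a gene not listed there has no value rather than a low value. Of the 60 genes, 57 have introns, and their 196 introns were counted in chromatin-bound RNA of both genotypes and in total RNA of the DMSO samples, with 193 introns of 56 genes counted in total RNA after GEX1A. The annotation names a ribosomal protein for 58 of the 60, and the other two, SAG24 and BBC1, are annotated under older symbols for members of the L10 and L13 families. Family names follow the older plant nomenclature, with the universal name (uL, uS, eL or eS) added where a protein is described.

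The material was seedlings grown for 14 days at 22 °C under 16 h of light and 8 h of dark. Col-0 is the wild type, and xrn3 is the insertion allele xrn3-3 of the gene for the nuclear exoribonuclease XRN3, which degrades the RNA left on chromatin after cleavage at the polyadenylation site (PAS). In a separate experiment Col-0 seedlings were vacuum infiltrated and treated for 1 h with 5 µM herboxidiene (GEX1A), which binds the SF3b complex that recognises the branch point, or with its solvent DMSO. Plant nascent elongating transcript sequencing (pNET-seq) with an antibody against RNA polymerase II phosphorylated at serine 2 of its tail (Ser2P) records the last base of RNA held by the polymerase, in 2 libraries per condition. Chromatin-bound RNA (CB-RNA-seq) was sequenced from Col-0 and xrn3 with 2 libraries each, and total RNA after DMSO and GEX1A with 3 libraries each. The tables used here pool the libraries of a condition into 1 value, so no spread between replicates can be given here. Every interval below covers counting error only, and every p-value comes from a two-sided Fisher's exact test on pooled reads, adjusted by Benjamini and Hochberg over all genes or introns tested. Such a test compares the pooled libraries and not the genotypes or treatments, and "called" below means an adjusted p under 0.05. With more reads the test calls smaller changes, so a share of calls also depends on depth.

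The nuclear genes listed held 12224996 gene body reads in Col-0, 25790239 in xrn3, 3874349 in DMSO and 3671597 in GEX1A. XRN3 itself had 302 gene body reads in Col-0. The libraries labelled xrn3 had 9931, which moved it from the 26.5th to the 90.1th percentile of listed genes. In chromatin-bound RNA it had 8055 exonic reads at splice sites in Col-0 and 6925 in xrn3, of 27795104 and 29404905 over all genes. The gene body reads thus do not show less transcription of the targeted gene in the libraries labelled xrn3, and how the insertion relates to these reads was not tested. Where the DMSO and GEX1A values stand beside those of Col-0 and xrn3 below, the experiments differ in treatment and in depth, the values are a description, and no difference between the experiments was tested.

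Ribosomal proteins are needed in nearly equal amounts, and in plants each is encoded by a small family of near-identical paralogues scattered over the chromosomes. Their genes are short, are transcribed at high rates in growing tissue, and often carry a telo box, a motif named after the telomere repeat, next to site II elements, which are bound by TCP transcription factors. The 60 genes had 1 to 7 exons with a median of 4, against a median of 5 over all genes listed in Col-0, and a median length of 1549.5 bp against 2274 bp. The promoters were searched on both strands for the telo box AAACCCTA and the site II elements TGGGCC and TGGGCT. Each motif was searched separately, and matches that share a base were not excluded. The window searched was the 300 bases from 250 before to 50 after the gene start given with the deposited data. A telo box was present in 52 of 60 (86.7%) against 8.50% of all 18010 promoters, and a site II element in 51 (85.0%) against 26.1%. Both motifs stood in 44 of the 60 (73.3%), against 3.39% of all promoters, and only AT2G40010, a P0 gene, had neither, against 68.8% of all promoters. The promoter of emb2386 (AT1G02780, L19; chr1:609416-609715, minus strand, TAIR10), the member with the highest gene body density in Col-0 among those without an annotated snoRNA, is printed with the motif letters in capitals, as it holds both motifs.
emb2386 promoter: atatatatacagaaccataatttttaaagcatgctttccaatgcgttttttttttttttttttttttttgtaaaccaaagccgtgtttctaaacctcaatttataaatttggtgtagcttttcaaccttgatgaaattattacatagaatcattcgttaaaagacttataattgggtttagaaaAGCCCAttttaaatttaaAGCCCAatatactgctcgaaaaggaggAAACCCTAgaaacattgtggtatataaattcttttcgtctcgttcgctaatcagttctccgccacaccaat
It holds 1 telo box and 2 site II elements. The 52 members with a telo box had a median gene body density of 438.8 reads per kb in Col-0, and the 8 without had 148.9 reads per kb. The medians were 719.7 and 254.0 in xrn3, and 69.5 and 31.3 in DMSO, over 48 and 8 listed members. In GEX1A they were closer, at 61.3 over 49 members and 57.4 over 6. A match to these letters describes the window and is not evidence of a bound factor.

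Serine 2 phosphorylated polymerase was dense over these genes. The median gene body density was 410.2 reads per kb in Col-0 against 90.8 over all listed genes, 635.5 against 183.2 in xrn3, 62.9 against 27.1 in DMSO, and 61.3 against 31.1 in GEX1A. The median member stood at the 84.7th, 79.6th, 73.3th and 71.0th percentile of listed genes in these conditions. In Col-0, 53 of the 60 exceeded the median of all genes, as did 54 of 60 in xrn3, 43 of 56 in DMSO and 41 of 55 in GEX1A. The spread among members was wide, however. In Col-0 the densest were AT4G17390 (2374 reads per kb), AT1G04480 of the L23 family (2024) and emb2386 (1661), and the sparsest were AT2G40010 (15.3), RPL16A of the L11 family (26.6) and RPL10B (48.2). The same 3 were densest and sparsest in xrn3, from 2709 in AT4G17390 to 21.5 in AT2G40010. In DMSO the densest were SAG24 (4673), AT3G53430 of the L12 family (219) and emb2386 (203), and the sparsest AT2G40010 (2.26), RPL10B (5.91) and AT5G39850 of the S9 family (7.25). In GEX1A they were SAG24 (3318), emb2386 (191) and RP1 (181), an L3 gene whose protein (uL3) reaches the peptidyl transferase centre, and RPL16A (2.85), AT5G39850 (4.53) and AT3G11250 (5.2). The 60 genes are 0.333% of the genes listed in Col-0 and held 0.314% of all gene body reads but 0.738% of all reads in the 3' peak windows.

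**Figure D1:**
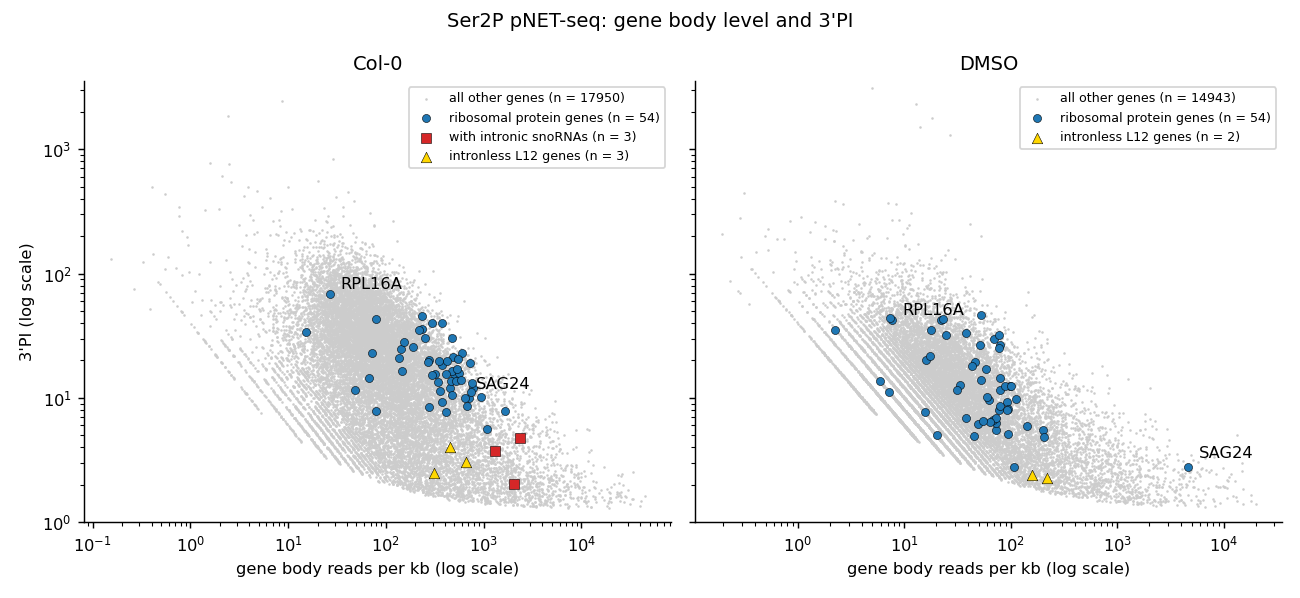
Gene body reads per kb (x axis, log scale) and 3'PI (y axis, log scale) of every gene listed in Col-0 (left) and DMSO (right); grey dots are other genes, blue circles ribosomal protein genes, red squares the 3 members with intronic snoRNAs and yellow triangles the intronless L12 genes. Most members lie within the grey cloud, above its median density and at middling 3'PI. The L12 genes and snoRNA hosts lie low, and SAG24 stands far to the right in DMSO at 4673 reads per kb.

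The 3' pause index (3'PI) is the read density of the peak window, the 50-bp window with most reads between 150 bp before and 300 bp after the PAS, over that of the gene body, which ends before the region searched. The median 3'PI of the members was 15.4 in Col-0 against 15.9 over all listed genes, 19.8 against 15.5 in xrn3, 11.3 against 10.6 in DMSO, and 12.5 against 7.37 in GEX1A. The members therefore had a middling index in Col-0 and DMSO, and a median above that of all genes in xrn3 and GEX1A. In Col-0 the 3'PI fell with gene body density across the 60 members, with a Spearman's rho of -0.56, as it did across all 18010 listed genes, with a rho of -0.53. These are correlations across genes, which share libraries and the reads of the denominator, and they are given as a description. The members' order was similar between conditions of an experiment, with a rho of 0.91 between Col-0 and xrn3 and 0.73 between DMSO and GEX1A over the 54 members listed in every table.

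The peak window lay close to the PAS, with its centre a median 55 bp after it in Col-0, against 89.5 bp over all genes. The medians were 72 against 95.5 bp in xrn3, 42.5 against 80.5 bp in DMSO and 54.5 against 70.5 bp in GEX1A. In 30 of the 54 members listed in every table (55.6%) the centres of the peak windows stayed within 25 bp over the 4 conditions, against 39.9% of all 11355 such genes, and in 12 (22.2%) within 5 bp, against 16.9%. The members' windows held a median of 310 reads in Col-0, against 88 over all listed genes. How read depth bears on the steadiness of the window was not tested. AT1G74050 of the L6 family (eL6) is an example of a steady peak, with a 3'PI of 39.68 (95% interval 35.5 to 44.4) in Col-0, 41.83 (38.5 to 45.5) in xrn3, 46.64 (34.8 to 62.8) in DMSO and 45.26 (33.9 to 60.7) in GEX1A. Its windows in Col-0 (chr1:27847078-27847127, minus strand) and DMSO (chr1:27847083-27847132) differ by 5 bp, the step of the search, and are shown in lower case with no base marked.
AT1G74050 Col-0 window: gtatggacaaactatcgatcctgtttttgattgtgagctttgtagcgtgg
AT1G74050 DMSO window: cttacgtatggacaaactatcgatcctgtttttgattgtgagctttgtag
The base composition of the windows was close to that of all genes, with 33.0% T and 32.7% A in the 60 member windows of Col-0 and 30.6% T and 34.8% A in all of them.

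The members' 3'PI differed with the number of exons, as did that of all genes. The 3 genes of the L12 family (uL11, a protein at the base of the stalk that binds translation factors) have no intron, and their 3'PI in Col-0 was 4.04 in AT2G37190 (95% interval 3.12 to 5.21), 3.07 in AT3G53430 (2.43 to 3.85) and 2.47 in AT5G60670 (1.67 to 3.59), against a median of 4.35 over 2269 genes with 1 exon. In xrn3 the same genes had 4.30, 4.75 and 3.38. In DMSO the first and second had 2.41 and 2.28, and the third was not listed. All 3 were thus in the lowest part of the members' range, and their intervals overlap each other. The 5 members with 2 exons had a median 3'PI of 17.1 in Col-0, where all genes of that class had 7.77, and 4 of them exceeded it. The 4 members with 3 exons had a median of 8.60, below the 10.8 of all genes of that class. With 4 exons the median was 15.5 over 19 members and 14.2 over all genes, and with 5 exons 19.5 over 21 members and 17.2 over all genes. In Col-0 the 6 members with 6 exons had 13.3 against 20.3 and the 2 with 7 exons 15.9 against 21.7. The same classes were close to all genes in xrn3, with 20.46 against 20.64 and 21.26 against 21.63. In DMSO they had 9.65 against 11.835 with 6 exons and 16.01 against 12.97 with 7 exons. The lower medians beyond 5 exons in Col-0 thus rest on few members and were not seen in every condition. In GEX1A the members stood above their class more often, with a median of 16.6 over 21 members with 5 exons against 8.72, and of 10.7 over 16 members with 4 exons against 8.47.

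**Figure D2:**
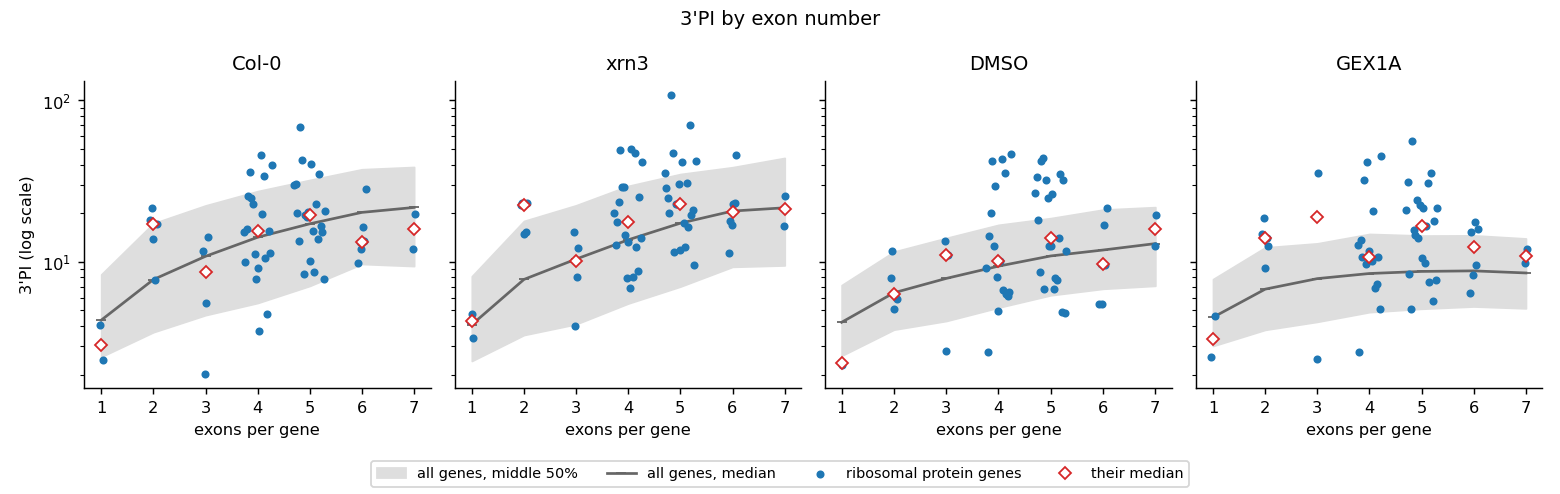
3'PI (y axis, log scale) by number of exons (x axis) in the 4 conditions; blue dots are ribosomal protein genes, red diamonds their medians, the grey line and band the median and the middle 50% of all listed genes. In Col-0 the diamonds stand at 3.07 for genes with 1 exon and at 17.1, above the band's line, for genes with 2 exons, and in GEX1A they stand above the line at 2 to 7 exons.

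The members with the highest index were RPL16A, with 68.51 in Col-0 (95% interval 44.4 to 109), RPS15A, with 45.67 (39.3 to 53.2), and AT3G58700, with 42.70 (32.7 to 56.0). RPL16A and AT3G58700 encode L11 (uL5, which holds the 5S rRNA together with uL18). RPL16A rested on 28 gene body and 91 window reads, and since the window with most reads is chosen from many, the index is biased upwards at such counts. RPS15A encodes S15a (uS8), and its index was 50 in xrn3, 43.12 in DMSO and 20.53 in GEX1A. In GEX1A the highest values were 56.21 in RPL16A, on 3 gene body reads, 45.26 in AT1G74050 and 41.63 in emb2171 (L23), and the lowest 2.49 in AT5G15200 (S9), 2.56 in AT2G37190 and 2.78 in SAG24.

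Annotated snoRNA genes lie inside 3 members, and these 3 members had many gene body reads and a low 3'PI in Col-0. Plant snoRNAs guide the modification of ribosomal RNA, many are released from introns, and reads inside them count as gene body reads of the host. AT1G04480 (L23, uL14, on the face of the 60S subunit that meets 40S) had 2172 gene body reads and a 3'PI of 2.01 (1.73 to 2.32) in Col-0. AT4G29410 (L28) had 2143 reads and 3.71 (3.24 to 4.24), and AT4G17390 (L15) had 2899 reads and 4.78 (4.36 to 5.23). None of the 3 was listed in DMSO or GEX1A. Outside the list, the 37 other protein genes with a snoRNA inside had a median density of 672 reads per kb and a median 3'PI of 6.15 in Col-0, against 90.8 and 15.9 over all genes. Of these 37, 19 (51.4%) were also listed in DMSO, against 80.1% of all genes listed in Col-0. How many of the reads came from the snoRNAs was not tested, as the tables give no reads per base. AT4G29410 holds 4 snoRNA genes in intron 3, between 85 and 95 bases long and on its own (minus) strand, and they are printed with the box C and box D letters in capitals, since they lie within the counted gene body.
AT4G08125 (chr4:14468649-14468743): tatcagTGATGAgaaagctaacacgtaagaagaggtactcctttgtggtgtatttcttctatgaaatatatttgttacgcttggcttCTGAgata
AT4G08155 (chr4:14468817-14468901): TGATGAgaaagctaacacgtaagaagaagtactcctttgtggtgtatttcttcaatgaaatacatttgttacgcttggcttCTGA
AT4G08165 (chr4:14468964-14469056): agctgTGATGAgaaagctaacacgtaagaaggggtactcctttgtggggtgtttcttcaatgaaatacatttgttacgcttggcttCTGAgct
AT4G08175 (chr4:14469192-14469284): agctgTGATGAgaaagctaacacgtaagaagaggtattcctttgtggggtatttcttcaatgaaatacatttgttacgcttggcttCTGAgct
AT1G04480 holds 3 annotated snoRNA genes in intron 2 and AT4G17390 holds 1 in intron 2. The study kept uniquely mapped reads, so the values of near-identical snoRNA copies and paralogues are uncertain throughout.

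Paralogues that encode the same protein often differed. In Col-0 the highest and the lowest 3'PI within a family differed by a median 2.21-fold over 25 families with more than 1 gene, and the gene body densities by a median 2.73-fold, with 7 families past 5-fold. The corresponding medians were 1.57- and 2.67-fold in xrn3, 2.50- and 2.13-fold over 23 families in DMSO, and 2.13- and 3.15-fold in GEX1A. The family furthest apart in Col-0 was L23, in which AT2G33370 had a 3'PI of 24.84 (19.6 to 31.5), emb2171 22.97 and the snoRNA host AT1G04480 2.01. In L11 the values were 68.51 in RPL16A, 42.70 in AT3G58700 and 8.38 (6.67 to 10.46) in RPL16B, and the last had 279.3 gene body reads per kb where the first had 26.6. In P0 (uL10, the stem of the stalk) AT3G09200 had 680.6 reads per kb and a 3'PI of 8.61, AT3G11250 72.1 and 22.74, and AT2G40010 15.3 and 34.09, a 44.6-fold range of density. In these 3 families, chosen for their spread in 3'PI, the gene with the highest density had the lowest index. Over the 25 families the densest gene had the lowest index in 17 and the highest in 6 (L4, L6, L7a, L8, S6 and SA), and the density is itself the denominator of the index.

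SAG24, 1 of 3 genes for L10 (uL16, which joins the 60S subunit late in its maturation), changed its rank between the experiments. Its gene body held 643.7 reads per kb in Col-0, 1179 in xrn3, 4673 in DMSO and 3318 in GEX1A, from 739, 1354, 5365 and 3809 reads, although the last pair of tables was the shallower. Its paralogue SAC52 had 498.3, 750.9, 91.5 and 75.8 reads per kb in the same order, and RPL10B had 48.2, 86.6 and 5.91 and was not listed in GEX1A. SAG24 was thus the densest member in DMSO and GEX1A and not in the untreated seedlings, and its 3'PI was 10.04, 12.75, 2.77 and 2.78. The seedlings of the second experiment were infiltrated in liquid, and this cannot be told apart from other differences between the experiments.

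The comparison of xrn3 with Col-0 asks whether the 3' pause depends on the exonuclease. The 3'PI was called higher in xrn3 at 29 of the 60 members, where 11.3% of the 17714 genes listed in both tables were called higher, and lower at 1, where 3.66% of all genes were. The value was higher at 56 of 60 members (93.3%), against 67.1% of all genes, with a median log2 ratio of 0.38 against 0.16. All 38 genes of 60S proteins were higher (19 called), as were 18 of the 22 genes of 40S proteins (10 called), with medians of 0.41 and 0.24. The largest rises were in AT3G16780 (L19, eL19), from 20.77 to 41.95, in AT5G23900 (L13, eL13), from 34.86 to 70.25, and in AT1G04480, from 2.01 to 3.98. Their log2 ratios were 1.01 (95% interval 0.63 to 1.40, adjusted p = 1.12e-05), 1.01 (0.72 to 1.3, adjusted p = 2.22e-09) and 0.99 (0.73 to 1.24, adjusted p = 5.10e-12, all by Fisher's exact test). The window of AT3G16780 moved by 15 bp and that of AT5G23900 by 5 bp. With a fold of at least 1.5 also required, 10 members were called higher and 1 lower, where 6.26% and 2% of all genes were.

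**Figure D3:**
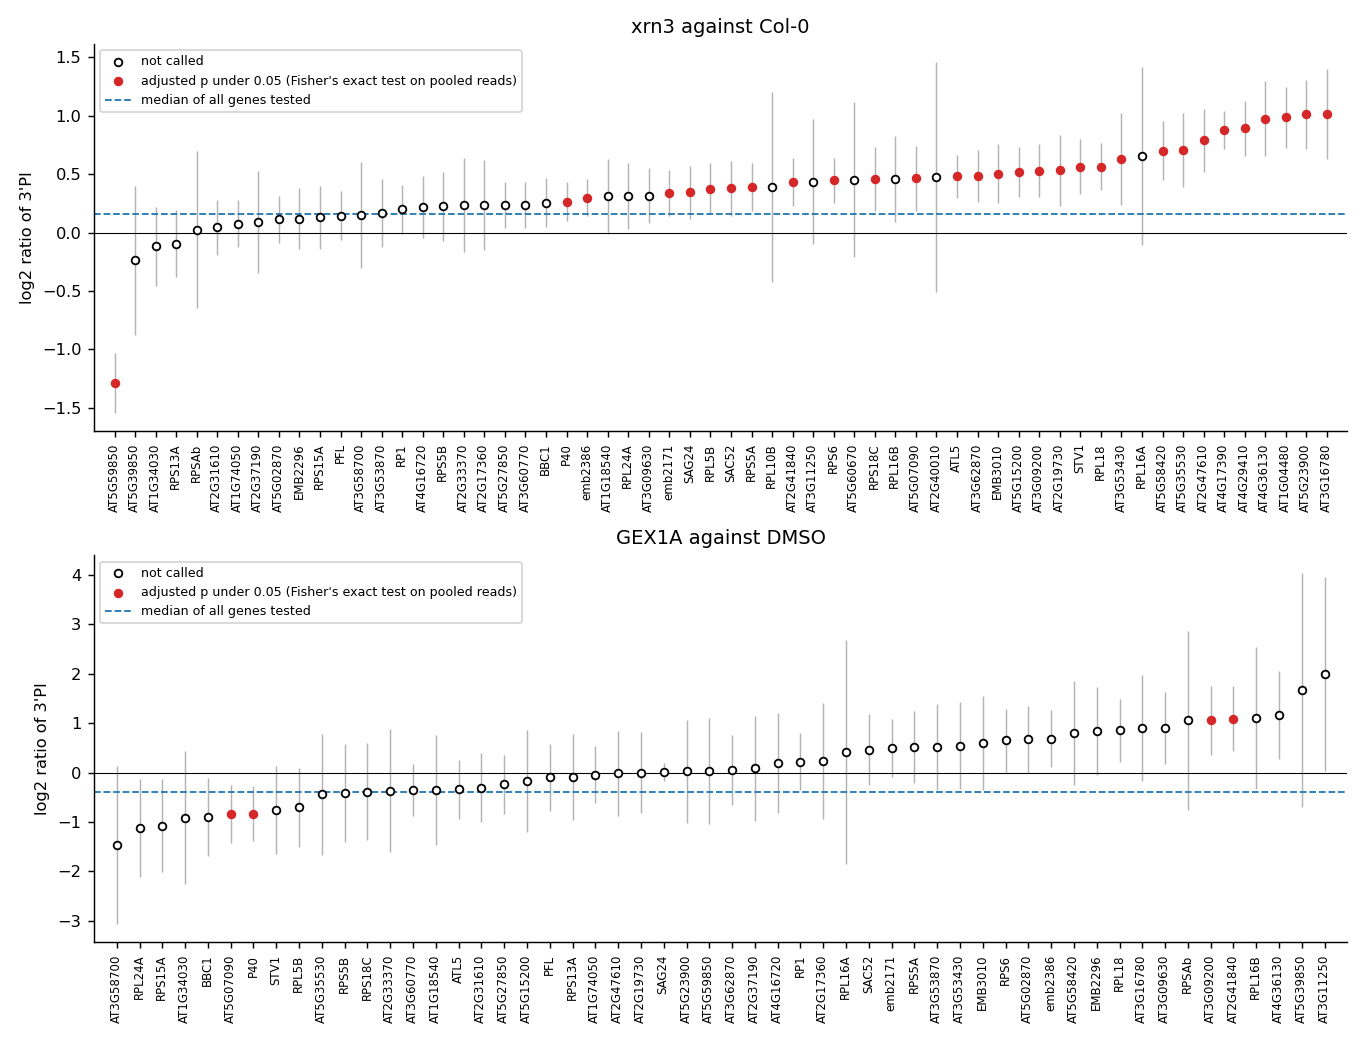
Log2 ratio of 3'PI (y axis) of each ribosomal protein gene (x axis, ordered by value) for xrn3 against Col-0 (top, 60 genes) and GEX1A against DMSO (bottom, 54 genes); bars are 95% intervals of counting error, filled red points are called, and the dashed line is the median of all genes tested. In the upper panel 56 of 60 points lie above 0 and 29 are called, while in the lower panel the points spread on both sides of 0 and 4 are called.

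The higher index went with fewer gene body reads rather than with more window reads. Scaled to the gene body reads of the genes listed in both tables, the members' gene body level had a median log2 ratio of -0.33 against -0.02 over all genes, and their peak window a median of 0.04 against 0.16. The deposited TPM of the pNET-seq data covers the gene extended downstream, peak window included. Its median log2 ratio was -0.05, against 0.08 over all genes. The gene body level was lower in xrn3 at 52 of 60 members, and at 9353 of all 17714 genes. It was past 1.5-fold lower at 4, where 4.69% of all genes were, and past 1.5-fold higher at 1, where 10.2% of all genes were. The 4 were AT1G04480 (log2 ratio -1.005), AT4G17390 (-0.81), AT5G23900 (-0.77) and AT4G29410 (-0.77), among them all 3 snoRNA hosts. Without the hosts, 26 of 57 members were called higher in 3'PI and 1 lower, with a median log2 ratio of 0.34.

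The exception was AT5G59850 (S15a), whose 3'PI fell from 19.71 to 8.07, a log2 ratio of -1.29 (-1.55 to -1.03, adjusted p = 1.66e-19, Fisher's exact test). Its gene body reads went from 388 to 1335 and its window reads from 342 to 482. It was the member whose gene body level rose most, with a log2 ratio of 0.78, followed, among members with at least 100 reads, by RPSAb (SA, uS2), with 0.46, and RPL16B, with 0.09. The next gene upstream on the same strand ends 982 bp before AT5G59850 and 111 bp before RPSAb. Of the 22 members with such a gene within 1 kb, 8 had a higher gene body level in xrn3, and of the 38 without, 0 had. Over all genes the shares were 60.6% of 5217 and 41.6% of 12497. This split was chosen after the values were seen. RPS13A (S13), from 30.46 to 28.50, and AT1G34030 (S18), from 25.68 to 23.65, also had a lower index and were not called, as did AT5G39850 (S9), from 14.32 to 12.14 on 74 gene body reads in Col-0. The peak windows of AT5G59850 in Col-0 (chr5:24112111-24112160, minus strand) and xrn3 (chr5:24112076-24112125) are shown since the peak moved 35 bp downstream as the index fell.
AT5G59850 Col-0 window: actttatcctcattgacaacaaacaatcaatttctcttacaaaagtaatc
AT5G59850 xrn3 window: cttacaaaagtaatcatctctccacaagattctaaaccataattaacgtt

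**Figure D4:**
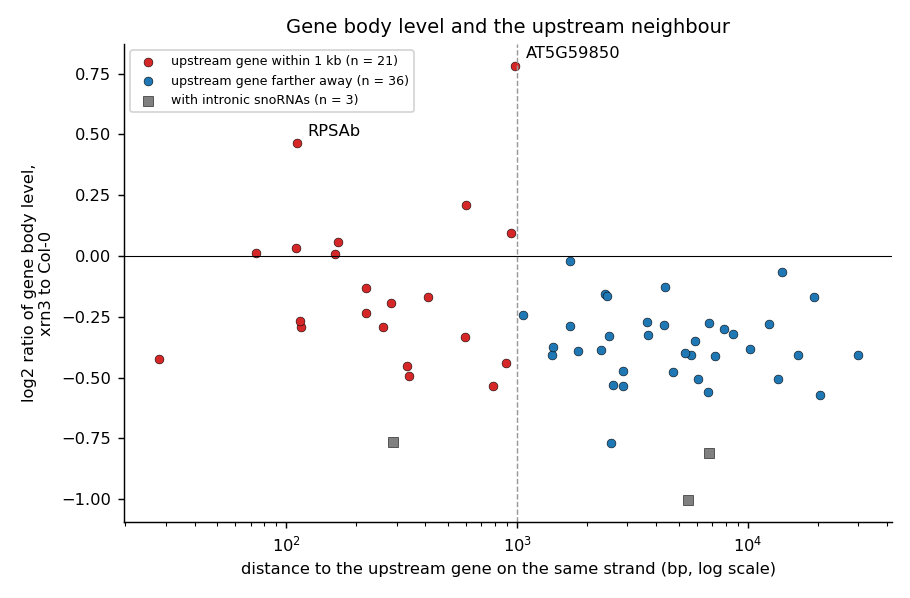
Log2 ratio of the gene body level, xrn3 to Col-0 (y axis), against the distance to the next upstream gene on the same strand (x axis, bp, log scale) for the 60 ribosomal protein genes; red circles have such a gene within 1 kb (dashed line), blue circles do not, and grey squares are the snoRNA hosts. The points above 0 lie left of the dashed line, with AT5G59850 highest at 0.78 and RPSAb next at 0.46.

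Treatment with GEX1A asks whether the 3' pause depends on the spliceosome. Over all 11590 genes listed in both tables the 3'PI was mostly lower after GEX1A, with a median log2 ratio of -0.39, 16.6% of genes called lower and 1.31% called higher. A gene not listed after GEX1A has no value, so these shares cover 11590 of the 14999 genes listed in DMSO. Of the 56 members listed in DMSO, 54 are covered. Among the 54 members 2 were called lower and 2 higher, with a median log2 ratio of 0.05 and a higher value in 31 (57.4%), against 32.7% of all genes. At unadjusted p under 0.05 the counts were 7 higher and 5 lower, against 3.19% and 24% of all genes. The called rises were in AT2G41840 (S2, uS5, at the entry of the mRNA channel), from 5.89 to 12.51 (log2 ratio 1.09, 0.43 to 1.74, adjusted p = 0.0128), and in AT3G09200 (P0), from 7.98 to 16.61 (1.06, 0.35 to 1.76, adjusted p = 0.0217, both by Fisher's exact test). The called falls were in AT5G07090 (S4, eS4), from 32.09 to 17.93 (-0.84, -1.42 to -0.26, adjusted p = 0.0299), and in P40 (SA, uS2), from 25.01 to 14.04 (-0.83, -1.39 to -0.28, adjusted p = 0.0240, both by Fisher's exact test). AT3G09630 (L4, uL4, which lines the exit tunnel) had 7.92 and 14.80, and AT3G60770 (S13) 26.57 and 20.84, neither of them called. The count rests on few reads, with a median of 83 gene body and 35.5 window reads per member in DMSO. Of the 15 members whose gene body held 100 reads or more in each condition, 9 (60%) were higher, against 32.5% of 3752 such genes. The median log2 ratio was 0.22 over these members against -0.31 over these genes.

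The exon number of the members bears on this comparison, because over all genes the median fell from 0.27 with 1 exon to -0.64 with 7 exons. At 4 or 5 exons the 37 members had a median log2 ratio of 0.00, against -0.28 over 2294 genes. All 5 members with 2 exons were higher, against 55.8% of the 1431 genes of that class. These 5 members had a median of 0.90 against 0.09 over the class, and they include AT2G41840, both L4 genes and both L8 genes. The median peak window level of the 54 members changed by -0.04 on the log2 scale and their gene body level by -0.23, where over all genes the window changed by -0.55 and the gene body by -0.09. By deposited TPM, which includes the peak window, the members' median was -0.04, against -0.14 over all genes. The gene body level was past 1.5-fold lower at 8 members, where 23.4% of all genes were, and past 1.5-fold higher at 2, where 16.2% were. Among those with 100 reads or more in each condition the largest falls were AT2G41840, from 207 to 130 reads, AT3G09200, from 160 to 108, and SAG24, from 5365 to 3809. The largest rises were AT5G15200 (S9), from 132 to 187 reads, AT3G60770 (S13), from 103 to 140, and AT5G27850 (L18), from 116 to 152, none of them past 1.5-fold.

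Splicing was measured by the SS ratio, the intronic over the exonic reads next to a splice site, which is lower where more of the RNA has been spliced. Reads at the 5' and the 3' splice site were summed over an intron, or over a gene's introns, and a read that spans a spliced junction may count at both sites, so that p-values are too small to that extent. On chromatin of Col-0 the median SS ratio of the 57 members with introns was 0.135, against 0.324 over 15089 genes, and the median member was at the 6.93th percentile of all genes. The lowest was AT2G41840 at 0.0361 (95% interval 0.0319 to 0.0407) and the highest the snoRNA host AT1G04480 at 0.668 (0.571 to 0.782), followed by RPL10B at 0.588 and AT3G16780 at 0.453. AT5G35530 (0.0537) and RPL5B (0.0572), a gene of uL18, were the next lowest. The exonic reads of the median member were at the 91.7th percentile, and how much mature mRNA, which carries no intronic reads, was held in the chromatin fraction was not tested.

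In xrn3 the SS ratio on chromatin was lower at 56 of 57 members, with a median of 0.0846. It was called lower at 45, where 50.3% of all genes were, and higher at 0, where 1.28% were. The only member with a higher value, AT5G15200 (S9), had 0.1605 and 0.1638, while 15.5% of all genes had a higher value. The median log2 ratio was -0.72 against -0.37 over all genes, whose median ratio went from 0.324 to 0.247. The exonic reads of the members rose relative to the table's total at the same time, by a median log2 ratio of 0.33, against -0.06 over all genes. The largest falls were in BBC1 (L13), from 0.328 (0.286 to 0.375) to 0.132 (0.115 to 0.152), in AT5G39850 (S9), from 0.413 to 0.176 on 63 and 91 exonic reads, and in RPL16B, from 0.142 (0.126 to 0.159) to 0.0615 (0.0535 to 0.0703). The adjusted p-values were 3.70e-19, 0.0441 and 6.00e-19 by Fisher's exact test. AT5G35530 (S3, uS3), with 0.0537 and 0.0515, and AT4G36130 (L8, uL2, next to the catalytic centre), with 0.0962 and 0.0915, changed least besides AT5G15200, and neither was called.

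Among single introns 105 of 196 were called lower in xrn3, where 19.8% of 94500 introns were, and 3 higher, where 1.92% were. These shares are not at equal depth. Member introns with at least 10 exonic reads had a median of 587 in Col-0, against 151 over all such introns. With the 5' splice site alone 43 were called lower and 1 higher, where 6.63% and 0.398% of all introns were. With the 3' splice site alone 59 were called lower and 1 higher, where 6.84% and 0.33% were. The 3 called higher were intron 1 of AT3G60770 (S13), with 52 intronic to 831 exonic reads in Col-0 and 126 to 925 in xrn3, intron 1 of its paralogue RPS13A, with 0 to 82 and 13 to 131, and intron 4 of AT5G23900, with 4 to 84 and 26 to 120. For the intron of RPS13A, whose count of 0 in Col-0 allows a ratio of up to 0.0366 (3 counts), the ratio in xrn3 was at least 2.71-fold higher. Both S13 genes thus gave a call in their first intron, while intron 2 of RPS13A was among the largest falls, with 11 to 98 and 3 to 192. Intron 4 of BBC1 went from 25 to 110 to 4 to 181, and intron 2 of AT1G18540 (L6) from 86 to 553 to 32 to 931. The third largest rise among introns with 50 exonic reads or more in each genotype was outside the calls, in intron 1 of AT3G58700, with 1 to 94 and 5 to 159. The least spliced intron was intron 1 of AT1G04480, with a ratio of 0.947 in Col-0 and 0.970 in xrn3. The most completely spliced in xrn3 was intron 1 of AT5G35530, with 0.0160 and 0.00512.

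In total RNA most of these introns had few intronic reads without the inhibitor. The median SS ratio of 56 members was 0.0105 in DMSO, against 0.0577 over 9659 genes, and 0.0590 after GEX1A, against 0.248. The ratio was higher after GEX1A at all 56 members, and at 94.5% of all 9659 genes. It was called higher at 53 members, where 85.5% of all genes were, and called lower at 0, where 1.19% were. The median log2 ratio was 2.66 against 1.91 over all genes, whereas the median difference of the ratio itself was 0.0498 against 0.162, so that the members rose by more in fold and by less in absolute terms. Their exonic reads changed by a median log2 ratio of 0.16 against -0.13. In DMSO the members held 1.28% of all exonic and 0.153% of all intronic reads at splice sites, and in GEX1A 1.57% and 0.433%.

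**Figure D5:**
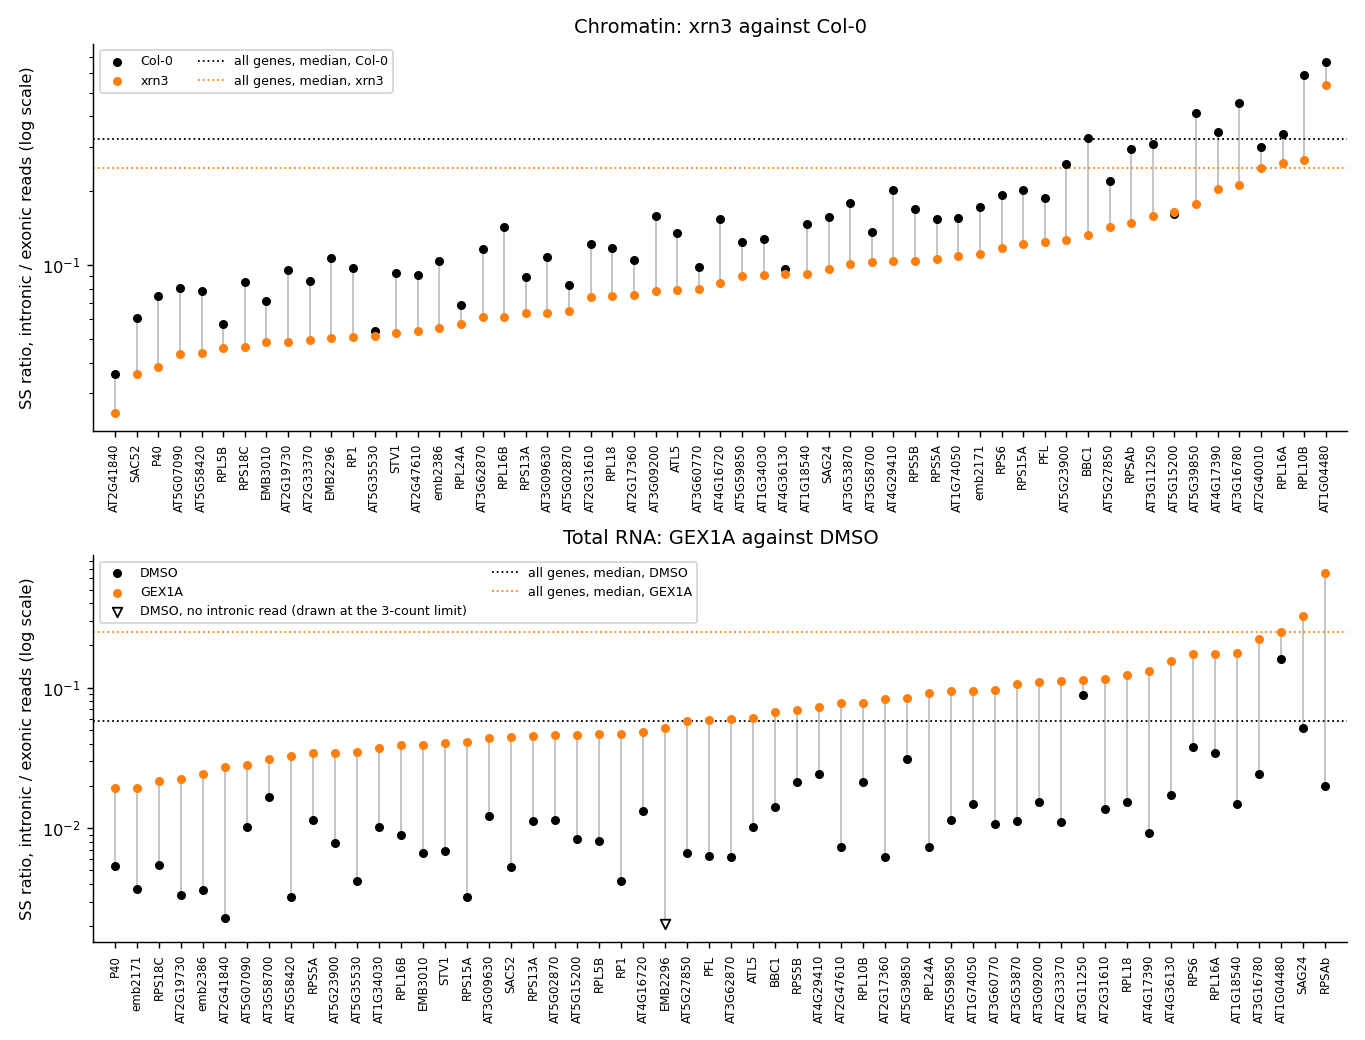
SS ratio (y axis, log scale) of each ribosomal protein gene with introns (x axis, ordered by the second condition) on chromatin in Col-0 (black) and xrn3 (orange), and in total RNA after DMSO (black) and GEX1A (orange); dotted lines are medians of all genes, and the open triangle marks EMB2296, with no intronic read in DMSO, at the limit set by 3 counts. On chromatin the orange point lies below the black in 56 of 57 genes, and in total RNA above it in all 56, yet 53 of them stay below the median of all genes after GEX1A. Over all genes the ratio was higher at 15.5% in xrn3 and at 94.5% after GEX1A.

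The largest rises on the log2 scale were in EMB2296, RPSAb and AT4G17390. EMB2296 (L8, uL2) is listed with no intronic read in DMSO, as its single intron had 0 intronic to 1453 exonic reads in DMSO and 48 to 931 after GEX1A, at least 24.97-fold higher with the floor of 3 counts. RPSAb had 4 intronic reads in DMSO and 81 after GEX1A, a ratio of 0.0201 (0.00542 to 0.0523) in DMSO and of 0.659 (0.491 to 0.879) after GEX1A, which was the highest ratio of any member and a 32.8-fold rise. All 3 of its introns shared in it, with ratios of 0.510, 0.636 and 0.872 after GEX1A. AT4G17390 rose from 0.00923 to 0.131. The smallest changes were in AT3G11250 (P0), from 0.0891 to 0.113 (adjusted p = 0.377, Fisher's exact test), in AT1G04480, from 0.16002 to 0.249, and in AT3G58700 (L11), from 0.0166 to 0.0313. The first of these was not called, nor were AT5G39850, with 0.0309 and 0.0840, and RPL10B, with 0.0213 and 0.0779, both on fewer than 150 exonic reads. SAG24, which had the second highest ratio after GEX1A, went from 0.0517 (0.0468 to 0.0569) to 0.326 (0.309 to 0.344), whereas its paralogue SAC52 went from 0.00529 to 0.0443.

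Of 193 introns 170 were called higher, where 57.2% of 57034 introns were, and 1 lower, where 3.04% were. Depth differed here too. In DMSO, member introns with at least 10 exonic reads had a median of 1052.5, against 137 over all such introns. The call lower was intron 1 of AT3G11250, with 13 to 98 in DMSO and 1 to 71 after GEX1A. First introns had a median ratio of 0.0871 after GEX1A, middle introns 0.0529 and last introns 0.0539, against 0.277, 0.146 and 0.186 over all introns. A ratio over 0.3 was found in 2 introns in DMSO and 11 after GEX1A. The 2 were intron 1 of AT1G04480 and intron 1 of RPS6, the gene of a protein phosphorylated downstream of the TOR kinase. Intron 1 of RPS6 had 167 to 471 in DMSO and 339 to 464 after GEX1A, a ratio of 0.355 and 0.731, and on chromatin 0.347 in Col-0 and 0.331 in xrn3. At the other end, intron 1 of AT3G60770 had 1 to 1208 and then 174 to 1121, and intron 3 of AT3G62870 (L7a) 0 to 1844 and then 47 to 1512, at least 19.1-fold higher. Intron 1 of AT5G35530 kept a low ratio, with 10 to 867 and 8 to 744, as did intron 3 of P40, with 6 to 1061 and 3 to 1186, and intron 4 of RPL16A had 13 to 132 and 6 to 114, neither of the last pair called. A selection of introns is printed with the first and last bases in capitals, and any CTNAC letters in the last 60 bases, which resemble the plant branch point, also in capitals. EMB2296, AT3G60770, RPS6 and SAG24 (intron 2, from 0.0451 to 0.215) were called higher after GEX1A, and AT5G35530 and P40 were not.
EMB2296 intron 1 (chr2:7837591-7837823, plus strand): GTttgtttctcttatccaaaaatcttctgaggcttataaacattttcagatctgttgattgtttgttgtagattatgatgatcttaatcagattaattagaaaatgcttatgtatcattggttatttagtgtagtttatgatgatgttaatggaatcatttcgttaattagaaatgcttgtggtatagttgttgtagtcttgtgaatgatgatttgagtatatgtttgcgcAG
AT3G60770 intron 1 (chr3:22461558-22461633, minus strand): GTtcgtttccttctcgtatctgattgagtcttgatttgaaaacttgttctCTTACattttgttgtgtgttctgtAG
RPS6 intron 1 (chr4:15347623-15347708, minus strand): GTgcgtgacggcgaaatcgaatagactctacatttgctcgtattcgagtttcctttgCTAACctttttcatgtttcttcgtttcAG
SAG24 intron 2 (chr1:24840120-24840190, plus strand): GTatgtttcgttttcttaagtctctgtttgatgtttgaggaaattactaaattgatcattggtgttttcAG
AT5G35530 intron 1 (chr5:13712075-13712162, minus strand): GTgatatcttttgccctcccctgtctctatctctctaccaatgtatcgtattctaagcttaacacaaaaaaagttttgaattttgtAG
P40 intron 3 (chr1:27243515-27243618, minus strand): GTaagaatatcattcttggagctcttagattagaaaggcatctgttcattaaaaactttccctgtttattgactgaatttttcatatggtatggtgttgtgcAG
All 196 member introns start with GT and end with AG, against 98.8% of 121135 introns. They start with GTAAG in 14.3% of cases against 17.0%, hold CTNAC in 13.8% against 18.2%, and are shorter than 100 bp in 48.0% against 50.1%, so that in these letters and in length they were close to all introns.

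Genes that work with the ribosome gave a background from lists chosen with earlier results of these data in view. Of 18 genes of ribosome biogenesis 7 were called higher in 3'PI in xrn3 and 0 lower, where 11.3% and 3.66% of all genes were, with a median log2 ratio of 0.40, and the largest rise of the lists was in FIB2 (fibrillarin, a snoRNP methyltransferase), from 6.15 to 11.05. The largest fall was in AT3G18130, a RACK1 gene, from 32.18 to 23.28, and was not called. Of 20 genes of translation factors and ribosome-associated proteins 8 were called higher and 0 lower (median 0.31), and of 6 genes around the TOR kinase, which regulates ribosome production, 2 and 0 (median 0.44). After GEX1A, where 1.31% of all genes were called higher and 16.6% lower, none of 13 biogenesis genes was called in either direction, with a median of -0.57, while of 18 translation genes 3 were called higher and 2 lower (median 0.00), and of 6 TOR genes 0 and 3 (median -0.63). The largest rise there was in AT5G60390, which encodes elongation factor 1A, from 3.14 to 8.25, and the largest fall in RAPTOR1, a TOR partner, from 32.78 to 5.24. Telo boxes stood in the promoters of 16 of 18 biogenesis, 11 of 20 translation and 1 of 6 TOR genes. On chromatin the SS ratio was called lower in xrn3 at 13 of 18, 17 of 20 and 4 of 6 genes of these lists, and none was called higher, where 50.3% of all genes were called lower and 1.28% higher. In total RNA it was called higher after GEX1A at 10 of 14, 17 of 19 and 5 of 6, where 85.5% of all genes were called higher and 1.19% lower, so that the share in the biogenesis list was below that of all genes. It was called lower at 1 biogenesis gene, FIB2, from 0.0535 to 0.0168.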

How the data were processed

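Libraries of Ser2P pNET-seq, of chromatin-bound and of total RNA were grouped by the genotype or treatment in the labels. The authors mapped reads to TAIR10 with HISAT2 2.2.0, trimmed the RNA-seq reads with Trimmomatic 0.39 and kept unique reads. The deposited gene body, peak window, intronic and exonic reads are whole-number counts, pooled by the authors over the libraries of a condition. TPM was calculated by the authors for each gene extended downstream, and the deposited 3'PI and SS ratio are the authors' ratios of read densities and of reads. The authors' p- and q-values of each gene's pause were not used, nor were the 4 value columns of 1 intron table that names no assay.

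Organellar genes were left out. Gene body levels were scaled to the total gene body reads of the genes listed in both conditions. SS ratios were recomputed from the counts, with 0.5 added for log2 ratios. Fisher's exact tests, with 95% exact binomial or normal log-ratio intervals, were run in Python 3.11.15 with scipy 1.17.1 and tested on simulated data. A median member had 530.5 gene body reads in Col-0 and 83 in DMSO, which sets the precision. Named for each comparison were the 3 largest rises and 3 largest falls among members with 100 gene body or 50 exonic reads in both conditions, the largest rise and fall of the related lists, for each condition the 3 highest and lowest members, and the 3 families furthest apart in Col-0, with others chosen after their values were seen. The members and lists were chosen with earlier results of these data known. Alternatives covered thresholds, filters, scaling, single splice sites and snoRNA hosts. Promoters, introns and peak windows were placed by the gene, intron and window positions given with the deposited data. Their bases and the snoRNA genes come from RefSeq, whose chromosome lengths hold every gene position in the files.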

Additional observations from a re-analysis of the deposited data

How the results depend on the processing

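Of 47 alternatives over 16 results, 27 left the result in the same direction and range, 14 moved a median by more than the counting error of the members' summed reads and 6 lowered a count by more than 1.5 times, and 0 reversed a direction. Some of the 27 could not have moved. In xrn3 against Col-0 all 60 members passed the filter of 20 gene body reads, so their median was fixed. No member compared in GEX1A against DMSO holds an annotated snoRNA, so leaving out hosts changed nothing there. For xrn3 against Col-0, the members called in 3'PI were 30, and 11 with a 1.5-fold change also required, the median log2 ratio of 3'PI was 0.38, and 0.34 without the snoRNA hosts, and the members past 1.5-fold in gene body level were 5, and 1 at 2-fold. The median log2 ratio of the gene body level was -0.33, and -0.31 when scaled to the median ratio of shared genes. The deposited TPM, counted among the alternatives, gave -0.054. It covers the gene extended downstream, peak window included, and is not a gene body level. For GEX1A against DMSO, the members called in 3'PI were 4, and 0 at an adjusted p under 0.01 (12 at an unadjusted p under 0.05). The median log2 ratio was 0.05, and 0.22 at 100 gene body reads or more. The members past 1.5-fold in gene body level were 10, and 4 at 2-fold, with a median of -0.23, and -0.14 when scaled to the median ratio. The deposited TPM, with the peak window included, gave -0.040. On chromatin, 108 member introns were called, 44 with the 5' splice site alone and 60 with the 3' splice site alone, tests that use fewer reads. The median SS ratio of member introns was 0.119 in Col-0, with 0.105, 0.133 and 0.116 for the 5' site, the 3' site and without introns that hold a snoRNA, and 0.0773 in xrn3, with 0.0639, 0.0787 and 0.0749. In total RNA it was 0.00769 in DMSO, and 0.00595 at the 5' site, and 0.0567 in GEX1A, and 0.0636 at the 3' site. The single-site counts, the counts without snoRNA hosts and the 100-read filter were chosen after seeing the data. Beyond the construction of the alternatives, the cause of these differences was not tested. No paired analysis was possible because the tables used here pool the libraries of each condition (1 value each), and for the same reason leaving out a replicate was not run. Depth limits the comparison of GEX1A with DMSO, with a median of 35.5 peak window reads per member in DMSO.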
